A study of Mus musculus with 24 samples.

Results

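The comparison described here set bone marrow LSK cells of IRE1_KO mice against those of wild-type (WT) mice, 3 RNA-seq libraries each, which are 6 of the 24 libraries of the study. LSK cells carry no markers of mature lineages and carry Sca1 (Ly6a) and c-Kit (Kit) on their surface, and the population holds the blood stem cells and the multipotent progenitors. The 6 libraries were chosen by their labelled genotype and cell type, and genes entered the test where FPKM, the deposited expression value per length of transcript and total of fragments, was at least 1 in 3 or more of the 6 libraries. This kept 11483 of 23991 genes. WT mice are labelled wild type. IRE1_KO mice carry floxed Ern1, the gene for IRE1 alpha, together with the VavCre transgene. Its Vav1 control sequences drive Cre in blood cells from the stem cell stage on, so the mature blood cells of the animal are meant to lack the floxed part too. All mice are on a C57BL/6 background, all cells were sorted by flow cytometry from bone marrow, and the labels used here give no age and no treatment. For reference, LSK cells with a Flt3 internal tandem duplication (ITD) were used with floxed Ern1 and VavCre (IRE1_KO_ITD) and without them (ITD), and so were the granulocyte-macrophage progenitors (GMP) of IRE1_KO and WT mice, again 3 libraries per group.

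IRE1 alpha is a sensor of misfolded proteins in the membrane of the endoplasmic reticulum (ER). When active, its endonuclease domain cuts the mRNA of Xbp1 so that a frame-shifted mRNA encodes the transcription factor XBP1s, which raises genes of protein entry into the ER, folding, glycosylation, disposal and export, and it also cuts some other ER-bound mRNAs. Together with PERK (Eif2ak3), which acts through ATF4, and with ATF6 it makes up the unfolded protein response (UPR), which in blood stem cells is linked to survival and self-renewal under stress.

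The labelled cell type was checked first. Kit ranged from 50.7 to 95.3 FPKM and Ly6a from 141.4 to 210 FPKM over the 6 libraries. The T cell genes Cd3e and Cd8a stayed at or under 0.367 and 0.187 FPKM. Both genes of the gate were thus present and these T cell genes were near 0. The late neutrophil list, whose genes belong to maturing granulocytes, summed to 11390, 5867 and 5925 FPKM in WT replicates 1 to 3. In IRE1_KO replicates 1 to 3 it summed to 13220, 6537 and 5644 FPKM, so replicate 1 stood far above the others in both groups. None of its 30 tested members passed the test, which says little given this spread within groups.

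The column headers of all 3 IRE1_KO LSK libraries end in 1ng and no other header of the series does. This tag and the genotype cannot be told apart in LSK cells. The 6 libraries also differed in composition. The locus Mir6236 held 4.95 to 6.19% of all FPKM in WT and 0.175 to 0.904% in IRE1_KO libraries, and short noncoding loci together held 10.3 to 10.9% against 3.78 to 5.27%. FPKM summed to 521877 to 548978 per library and 11239 to 11471 genes reached 1 FPKM. The number of reads behind each library is not given here. The spacing of low values gave a relative depth of 1.14 to 1.29 for IRE1_KO and 1 to 1.1 for WT libraries, with WT replicate 1 set to 1. By sex-linked genes, 1 of 3 WT and 2 of 3 IRE1_KO LSK libraries came from females, as did 3 of 3 ITD and 1 of 3 IRE1_KO_ITD LSK libraries. Nothing in the labels says that the 3 libraries of a group came from separate animals, so the p-values below measure the spread between libraries.

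Among 11483 genes, 2532 (22%) were higher and 339 (2.95%) lower in IRE1_KO than in WT LSK cells, by limma on log2(FPKM + 1) with an adjusted p under 0.05 (Benjamini-Hochberg over all genes tested). Such genes are called higher or lower below, fold changes are differences of log2(FPKM + 1) with their standard error (SE), and these understate the change of low genes. The median of all genes was 0.14. Quantile normalisation moved it to -0.09 with 1439 genes higher and 1243 lower, and scaling by the median ratio moved it to -0.03 with 1566 higher and 878 lower. The size of the excess of higher over lower calls thus depends on the scale. Without regard to the test, all 3 IRE1_KO libraries lay above all 3 WT libraries for 3502 genes (30.5%) and below them for 717 (6.24%).

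The genes called higher shared a feature of sequence. For each gene the 100-base window with the most G and C was found in its longest protein-coding transcript, or in its longest transcript where it had no coding one. The GC content of that window is called peak GC here. Of the genes with a peak GC up to 55%, 3.21% were higher, and this share was 11.2% from 70 to 75%, 29.2% from 75 to 80%, 63.3% from 80 to 85%, and 24.7% over 90%. The median log2 fold change of the class from 80 to 85% was 0.66. The 2178 genes over 80% held 1340 of the higher calls, 52.9% of them. Across 11267 genes, which share the same libraries, fold change and peak GC had a Spearman correlation of 0.416, and overall GC content only one of 0.0644. Transcript length had one of 0.245. In IRE1_KO_ITD against ITD length had 0.367 and peak GC 0.4, and in GMP they had 0.346 and 0.401. Peak GC was examined after the data were seen. In IRE1_KO_ITD against ITD LSK cells, whose headers carry no 1ng tag, 45.1% of the class from 80 to 85% was higher against 1.38% of the class up to 55%. In GMP the class from 80 to 85% had a median of 0.25. The part of the library differences given above in this was not tested.

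**Figure D1:**
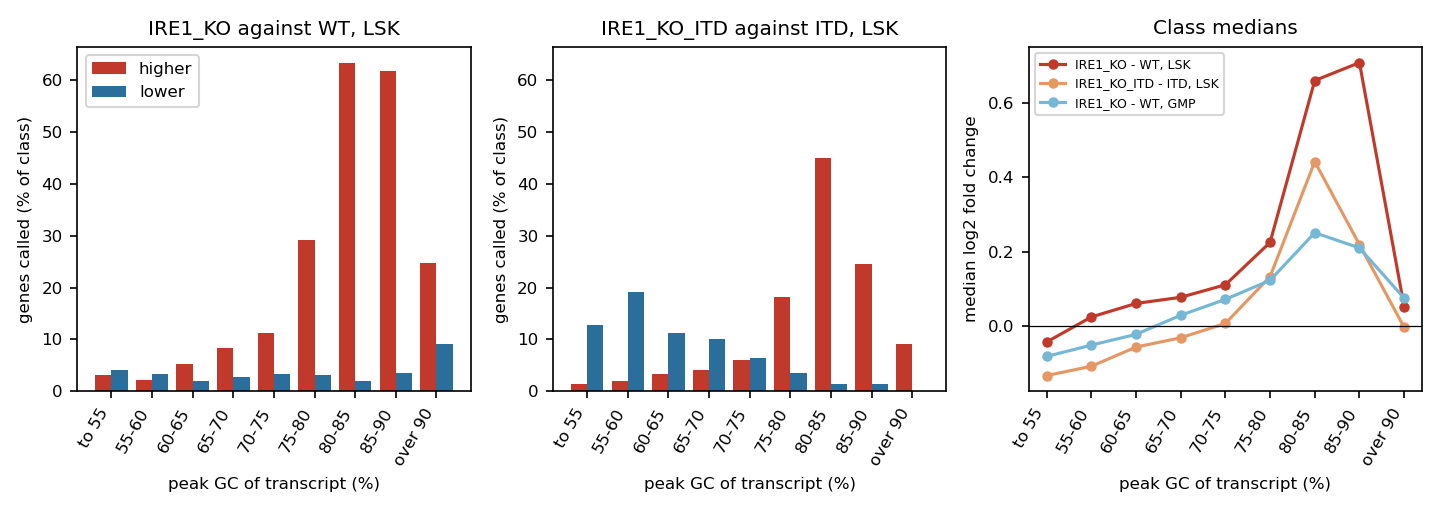
Genes called higher (red) or lower (blue) in percent of each class of peak GC, the GC content of the richest 100-base window of the transcript, for IRE1_KO against WT and for IRE1_KO_ITD against ITD in LSK cells, with the median log2 fold change of each class in both and in GMP on the right. In IRE1_KO against WT the higher share goes from 3.21% in the lowest class to 63.3% between 80 and 85%.

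The windows below show what the classes mean. Exosc6 and Alyref are among the 10 genes with the highest fold change, and Sva is the one gene among them with a low peak GC. Lars2 has the lowest fold change of the 10 lowest genes. Short noncoding loci, told by their symbols, are given apart, at the end, except for Gm12238, which the symbols did not mark. Each is the richest window within 1 coding exon, which can hold less GC than the peak of the whole transcript, in the mouse build GRCm38 and from the strand of the gene. Capitals mark runs of 5 or more G or C.
Exosc6 (chr8:111056556-111056655, plus strand, exon 1 of 1, 83% GC): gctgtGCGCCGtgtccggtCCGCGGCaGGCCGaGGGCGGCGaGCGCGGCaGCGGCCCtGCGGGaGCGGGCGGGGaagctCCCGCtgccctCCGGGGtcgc
Alyref (chr11:120598179-120598278, minus strand, exon 1 of 6, 87% GC): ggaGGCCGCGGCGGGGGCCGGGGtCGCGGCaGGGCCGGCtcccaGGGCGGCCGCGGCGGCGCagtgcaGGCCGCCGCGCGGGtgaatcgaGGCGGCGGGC
Sva (chr6:42042573-42042672, plus strand, exon 4 of 4, 42% GC): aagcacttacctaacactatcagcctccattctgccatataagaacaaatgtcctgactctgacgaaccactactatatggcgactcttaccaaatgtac
Lars2 (chr9:123436206-123436305, plus strand, exon 12 of 21, 64% GC): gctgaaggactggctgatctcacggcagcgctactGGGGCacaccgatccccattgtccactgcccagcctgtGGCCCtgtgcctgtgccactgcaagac

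Ern1, the targeted gene, lies at chr11:106397620-106487796 of GRCm38. Its mRNA was 4.74, 4.55 and 3.73 FPKM in WT and 6.64, 7.52 and 8.71 FPKM in IRE1_KO replicates 1 to 3. The groups did not overlap and the IRE1_KO libraries were the higher ones. The log2 fold change was 0.69 ± 0.21 (SE; limma adjusted p = 0.0312), and the call was lost in 11 of 18 alternatives, with adjusted p up to 0.164. Of the left-out libraries, each of the 3 WT replicates (0.0503, 0.0704 and 0.0883) and IRE1_KO replicates 2 and 3 (0.0779 and 0.105) ended it. Values per gene do not resolve exons, so they do not check the deletion. In GMP the log2 fold change of Ern1 was 1.10 and in ITD LSK cells it was 0.87, both past the threshold. Once each library was corrected for peak GC, Ern1 had 0.46 (limma adjusted p = 0.0592) in LSK cells without ITD and 0.52 (0.0631) with it.

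Xbp1, whose mRNA is the main substrate of IRE1, was 36.8, 23.2 and 22.5 FPKM in WT and 52.1, 46.4 and 47.0 FPKM in IRE1_KO libraries. The lowest IRE1_KO library thus lay above the highest WT library. The log2 fold change was 0.83 ± 0.19 (limma adjusted p = 0.00735), and 0.56 (adjusted p = 0.0606) once each library was corrected for peak GC. Gene-level values do not separate the cut from the uncut Xbp1 mRNA. In IRE1_KO_ITD against ITD LSK cells Xbp1 rose by 1.47 on the log2 scale, and the difference between both effects did not pass (adjusted p = 0.165).

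The other branches of the UPR gave mixed results. Eif2ak3, which encodes PERK, was 1.70, 1.02 and 0.826 FPKM in WT and 2.72, 3.59 and 3.34 FPKM in IRE1_KO libraries, a low level in all. It rose by 0.97 ± 0.15 on the log2 scale (limma adjusted p = 0.000604, and 0.068 after the peak GC correction). Atf4, the transcription factor downstream of PERK, was 148, 197 and 180 FPKM in WT and 109, 95.7 and 140 FPKM in IRE1_KO libraries, so each IRE1_KO library was below each WT library. Its log2 fold change was -0.61 ± 0.20 (limma adjusted p = 0.0461), a call lost in 11 of 19 alternatives, with adjusted p up to 0.164. Among these were the fits without WT replicates 2 and 3 (0.164 and 0.0984) and without IRE1_KO replicates 1 and 2 (0.0983 and 0.164). Atf6, the third sensor, had a log2 fold change of 0.14 (adjusted p = 0.643), and Ddit3, which encodes the ATF4 target CHOP, one of -0.35 (adjusted p = 0.251, and 0.0493 after quantile normalisation). The list of sensors and transcription factors held 5 higher and 2 lower members of 16 tested, against 22% and 2.95% of all genes. Its median was 0.27 against 0.14 over all genes, and 2 members were higher and 3 lower after quantile normalisation. Without WT replicate 1, WT replicate 2 or IRE1_KO replicate 3 the higher count was 3, 2 and 3. The other higher members were Mbtps1, the site-1 protease that activates ATF6, at 0.63, and Nfe2l1, a transcription factor of proteasome genes, at 0.63. The other lower member, named after its values were seen, was Mbtps2, the site-2 protease, at -0.39. These 3 calls were fragile. That of Mbtps1 was lost without WT replicate 2 (adjusted p = 0.058), that of Nfe2l1 without WT replicates 1 and 2 and without IRE1_KO replicates 2 and 3 (0.0534 to 0.0692) and after the peak GC correction (0.22, adjusted p = 0.246), and that of Mbtps2 without any 1 of the 6 libraries (0.0708 to 0.107).

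**Figure D2:**
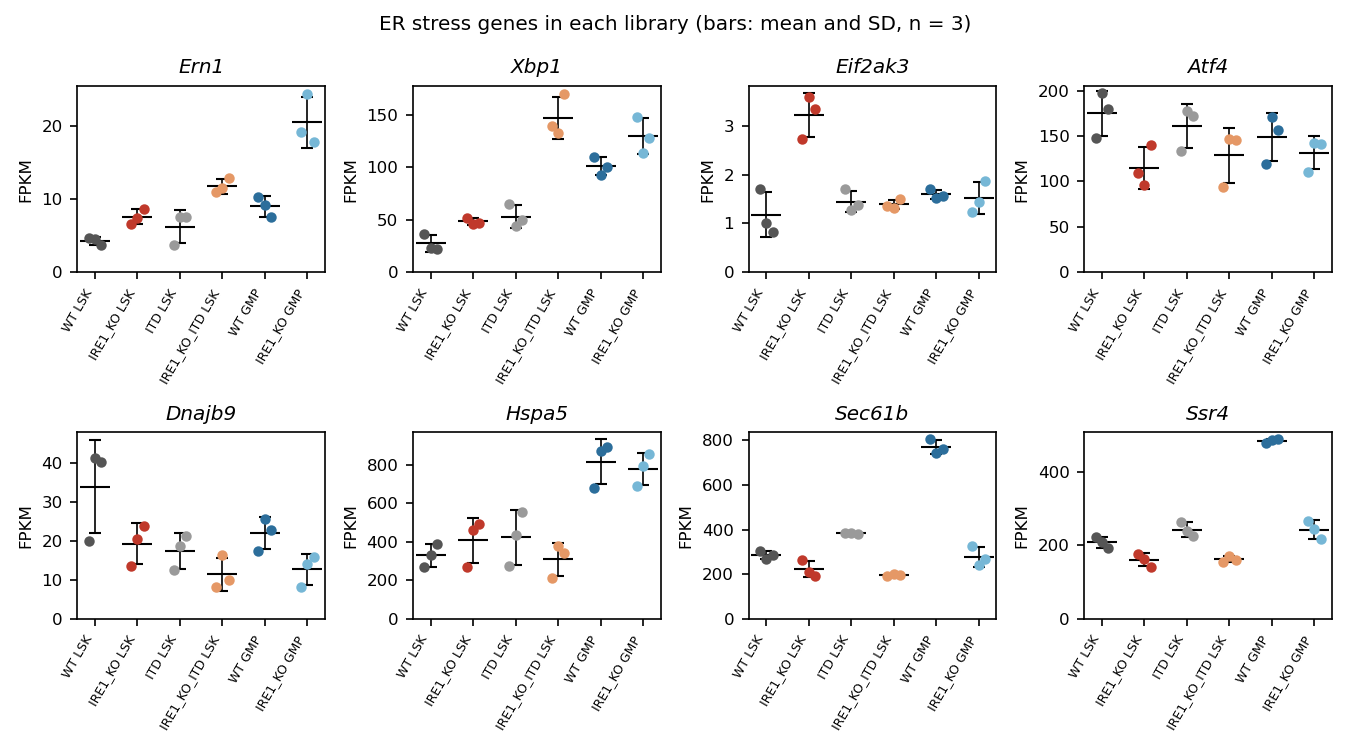
FPKM of 8 UPR and ER genes, each point 1 library, with the mean and SD (n = 3) of WT, IRE1_KO, ITD and IRE1_KO_ITD LSK cells and of WT and IRE1_KO GMP. In LSK cells without ITD the WT points of Sec61b, 268 to 305 FPKM, and its IRE1_KO points, 192 to 262 FPKM, lie close together, while the groups stand far apart in GMP.

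Promoters of 4 of these genes are printed because XBP1 and ATF6 act through short elements near the start of their target genes. Each holds 250 bases before and 50 bases after the start of transcription, from RefSeq on GRCm38.p6, from the strand of the gene. Capitals mark the ER stress response element ERSE (CCAAT and CCACG with 9 bases of any kind between them), its variant ERSE-II (ATTGG and CCACG with 1 base between them) or the core of the UPR element (ACGTGG), each searched on both strands. In the Herpud1 promoter ERSE-II and a core on the minus strand overlap, and no letters in the Sec61b window match any of the 3 motifs.
Hspa5 (chr2:34771840-34772139, plus strand, ERSE at bases 186 to 204): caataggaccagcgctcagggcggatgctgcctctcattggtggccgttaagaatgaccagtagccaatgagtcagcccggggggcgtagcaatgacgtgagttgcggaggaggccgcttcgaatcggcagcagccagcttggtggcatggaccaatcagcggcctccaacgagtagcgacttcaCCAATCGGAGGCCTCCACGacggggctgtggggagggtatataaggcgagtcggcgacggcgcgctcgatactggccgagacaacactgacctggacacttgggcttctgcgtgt
Herpud1 (chr8:94386179-94386478, plus strand, ERSE-II at bases 199 to 209 and core at 205 to 210): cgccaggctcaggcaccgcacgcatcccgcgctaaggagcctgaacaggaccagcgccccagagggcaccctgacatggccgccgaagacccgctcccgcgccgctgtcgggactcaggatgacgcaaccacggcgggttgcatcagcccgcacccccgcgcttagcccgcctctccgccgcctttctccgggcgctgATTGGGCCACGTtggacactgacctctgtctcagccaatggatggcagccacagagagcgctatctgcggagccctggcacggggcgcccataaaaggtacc
Dnajb9 (chr12:44210019-44210318, minus strand, core at bases 143 to 148): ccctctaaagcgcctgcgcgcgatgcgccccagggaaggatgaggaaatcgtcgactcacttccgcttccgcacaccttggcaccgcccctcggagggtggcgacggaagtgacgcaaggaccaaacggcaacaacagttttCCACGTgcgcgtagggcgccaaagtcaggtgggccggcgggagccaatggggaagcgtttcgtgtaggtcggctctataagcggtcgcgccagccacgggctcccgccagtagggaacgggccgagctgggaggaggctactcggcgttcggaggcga
Sec61b (chr4:47474411-47474710, plus strand): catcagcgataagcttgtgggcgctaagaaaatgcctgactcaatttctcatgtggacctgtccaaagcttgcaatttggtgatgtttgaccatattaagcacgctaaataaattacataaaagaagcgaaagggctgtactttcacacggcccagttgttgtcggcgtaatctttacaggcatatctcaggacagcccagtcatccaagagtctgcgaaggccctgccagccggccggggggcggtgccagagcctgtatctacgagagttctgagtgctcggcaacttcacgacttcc

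The genes behind these promoters did not move as 1 group. Hspa5, the main ER chaperone BiP, was 270, 334 and 387 FPKM in WT and 271, 461 and 490 FPKM in IRE1_KO libraries, with overlapping groups (log2 fold change 0.27, limma adjusted p = 0.581). Herpud1, which organises the disposal of misfolded ER proteins, had a log2 fold change of 0.02 (adjusted p = 0.931). Dnajb9, a BiP co-chaperone and a well known XBP1s target, was 20.1, 41.2 and 40.3 FPKM in WT and 13.5, 20.5 and 23.9 FPKM in IRE1_KO libraries. Its WT replicates 2 and 3 lay above all others and the remaining one among the IRE1_KO values, and the log2 fold change of -0.75 ± 0.33 did not pass (adjusted p = 0.121). It passed without WT replicate 1 (0.0278) and after quantile normalisation (0.0395).

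Over all promoters in the RefSeq table, 0.119% of 32851 held an ERSE, 0.0365% an ERSE-II and 8.31% a UPR element core. Of 8531 tested genes matched by symbol to a promoter, 16 had an ERSE. Among these 5 were higher, namely Hsp90b1, Dnajc3, Creld2, Adcy3 and Pan2, 1 was lower, namely Alg12, and the median was 0.06. Leaving out WT replicate 2 or IRE1_KO replicate 2 ended the calls of Hsp90b1, Creld2 and Pan2 alike, with adjusted p from 0.0733 to 0.14, and WT replicate 2 that of Alg12 (0.0601). Creld2 was also lost without WT replicate 3 (0.129) or IRE1_KO replicate 3 (0.1), and Pan2 without WT replicate 1 (0.0883) or IRE1_KO replicate 3 (0.0706). None of the 8 tested genes with an ERSE-II was called in either direction. Of all genes 22% were higher and 2.95% lower, and sets of 16 and 8 genes are too small to be told apart from these shares. With the core there were 1150 genes, of which 25.1% were higher and 2.52% lower, close to the 22% and 2.95% of all genes. A match describes the letters only, not binding.

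Genes of protein entry into the ER and of N-glycosylation held 5 higher and 3 lower members of 46 tested, with a median of 0.08. The higher share was smaller than the 22% of all genes, of which 2.95% were lower. After quantile normalisation the counts were 3 higher and 10 lower, and after a correction for GC content and length 13 higher and 1 lower, so the direction of the list differed between settings. Without WT replicate 3 it held 10 higher and 3 lower members, and without IRE1_KO replicate 1 it held 5 and 6. Sec61b, the beta subunit of the translocation channel, was 305, 268 and 287 FPKM in WT and 262, 211 and 192 FPKM in IRE1_KO libraries. The groups were separated by a small gap. Its log2 fold change was -0.38 ± 0.10 (limma adjusted p = 0.0192), and the call was lost in 7 of 19 alternatives, among them those without WT replicate 1 (adjusted p = 0.0699), without IRE1_KO replicate 2 (0.0643) and without IRE1_KO replicate 3 (0.0664). Ssr4, a subunit of the translocon-associated complex, was 224, 210 and 192 FPKM against 176, 164 and 142 FPKM, and it fell by 0.37 on the log2 scale (adjusted p = 0.0176). That call was lost in 6 of 18 alternatives, among them those without WT replicate 1 (0.067), without WT replicate 2 (0.0573) and without IRE1_KO replicate 3 (0.0628). Sec61g, the gamma subunit, named after its values were seen, was 69.0, 55.7 and 61.1 FPKM against 62.9, 50.4 and 45.3 FPKM (log2 fold change -0.23, adjusted p = 0.208), and passed without IRE1_KO replicate 1 (0.0386) and after quantile normalisation (0.0229).

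In the other comparisons Sec61b, Sec61g and Ssr4 were lower. In ITD LSK cells Sec61b had a log2 fold change of -0.95, Sec61g one of -0.93 and Ssr4 one of -0.58, each past the threshold. In GMP the values were -1.47, -1.50 and -0.9994, all past it too. The IRE1_KO effect on Sec61b in LSK cells differed from that with ITD by 0.57 (adjusted p = 0.0396) and from that in GMP by 1.09 (adjusted p = 0.000298). Of the 46 genes, 13 were lower in IRE1_KO_ITD against ITD, where 6.99% of all genes were lower. In GMP 21 were lower, against 0.784% of all genes. For 23 the effect in LSK cells was higher than that in GMP in a test of the difference, by which 4.96% of all genes passed in this direction and 1.18% in the other.

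The higher members of the list were of other kinds. Mogs, the glucosidase that trims the first glucose of N-glycans, was 12.9, 8.96 and 6.10 FPKM in WT and 34.3, 36.2 and 44.1 FPKM in IRE1_KO libraries (log2 fold change 1.97, limma adjusted p = 0.000108). Sec63, which recruits BiP to the channel, was 3.05, 2.88 and 2.47 FPKM against 8.62, 8.58 and 9.39 FPKM (1.38, adjusted p = 2.08e-05). In both genes all IRE1_KO values stood well above the WT range. Stt3b, a catalytic subunit of oligosaccharyltransferase, rose by 1.11 and Tram1, which helps nascent chains enter the membrane, by 0.53 (adjusted p = 0.00851, and 0.0780 after quantile normalisation). After the peak GC correction these values were 0.55 (adjusted p = 0.0136) and 0.20 (adjusted p = 0.169). The peak GC of Sec63 and Mogs was 87 and 88%, that of Sec61b 70%.

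Among ER chaperones and disulfide isomerases 9 of 31 tested members were higher and none lower, against 22% and 2.95% of all genes. The median was 0.14, equal at this rounding to that of all genes. After quantile normalisation 5 were higher and 3 lower. Without WT replicate 2, 5 were higher. Txndc5, a disulfide isomerase, was 20.3, 14.6 and 12.02 FPKM in WT and 47.6, 60.4 and 50.5 FPKM in IRE1_KO libraries, a clear separation. It rose by 1.72 ± 0.19 on the log2 scale (limma adjusted p = 4.26e-05). Dnajc3, a BiP co-chaperone that holds PERK in check, was 10.98, 10.04 and 8.439 FPKM against 16.9, 19.1 and 19.2 FPKM, and rose by 0.85. In GMP it fell by 0.79, and the difference of both effects was 1.63 (adjusted p = 1.13e-05). Hsp90b1, the ER member of the HSP90 family, was 118, 91.5 and 115 FPKM against 151, 146 and 128 FPKM (0.39, adjusted p = 0.0228). That call was lost without WT replicate 2 (0.0983), IRE1_KO replicate 1 (0.0667) or IRE1_KO replicate 2 (0.0733).

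ER-associated degradation, the disposal of misfolded proteins to the cytosol, held 9 higher and no lower members of 27 tested, against 22% and 2.95% of all genes, with a median of 0.22, and 7 higher and 2 lower after quantile normalisation. Edem1, a lectin that hands over misfolded glycoproteins, was 3.92, 3.74 and 3.28 FPKM in WT and 8.09, 9.71 and 9.73 FPKM in IRE1_KO libraries (log2 fold change 1.13 ± 0.18, limma adjusted p = 0.00053). Herpud2, a paralog of Herpud1, was 4.30, 4.43 and 3.86 FPKM against 20.3, 20.8 and 25.3 FPKM (2.15, adjusted p = 1.08e-05). In both genes each IRE1_KO library was far above each WT library. Ube2j2, a ubiquitin-conjugating enzyme of the ER, and Nploc4, a cofactor of the extracting ATPase, rose by 1.62 and 1.75. Of the vesicle genes between ER and Golgi, 12 of 40 were higher, again against 22%, and 1, Kdelr1, lower (adjusted p = 0.0455, and 0.0566 to 0.16 without any 1 library other than WT replicate 3), and after quantile normalisation 2 were higher and 4 lower. Without WT replicate 1, WT replicate 2 or IRE1_KO replicate 2 the higher count was 7, 4 and 6. Tmed2, a cargo receptor of these vesicles, was 83.5, 80.1 and 64.1 FPKM against 221, 307 and 246 FPKM (1.75, adjusted p = 6.65e-05).

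ATF4 targets of amino acid supply and stress held 9 higher and 1 lower members of 32, against 22% and 2.95% of all genes. Their median was 0.20, and 5 were higher and 3 lower after quantile normalisation, while Atf4 itself was lower. Without IRE1_KO replicate 2, 5 were higher. Cebpb, a transcription factor of this response and of emergency granulopoiesis, was 1.55, 4.30 and 2.95 FPKM in WT and 9.75, 16.3 and 26.2 FPKM in IRE1_KO libraries (log2 fold change 2.19, limma adjusted p = 0.000535). The amino acid transporter Slc7a5 rose by 1.54 and the glycyl-tRNA synthetase gene Gars by 1.44. Of 20 mRNAs that have been reported as substrates of IRE1-dependent decay, 4 were higher and none lower, a share near the 22% of all genes. The substrate used most often as a readout, Bloc1s1, was 183, 158 and 161 FPKM in WT and 166, 168 and 154 FPKM in IRE1_KO libraries (log2 fold change -0.04, adjusted p = 0.782), and its sign turned after either GC correction. Hgsnat and Galnt10 rose by 1.53 and 1.69.

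**Figure D3:**
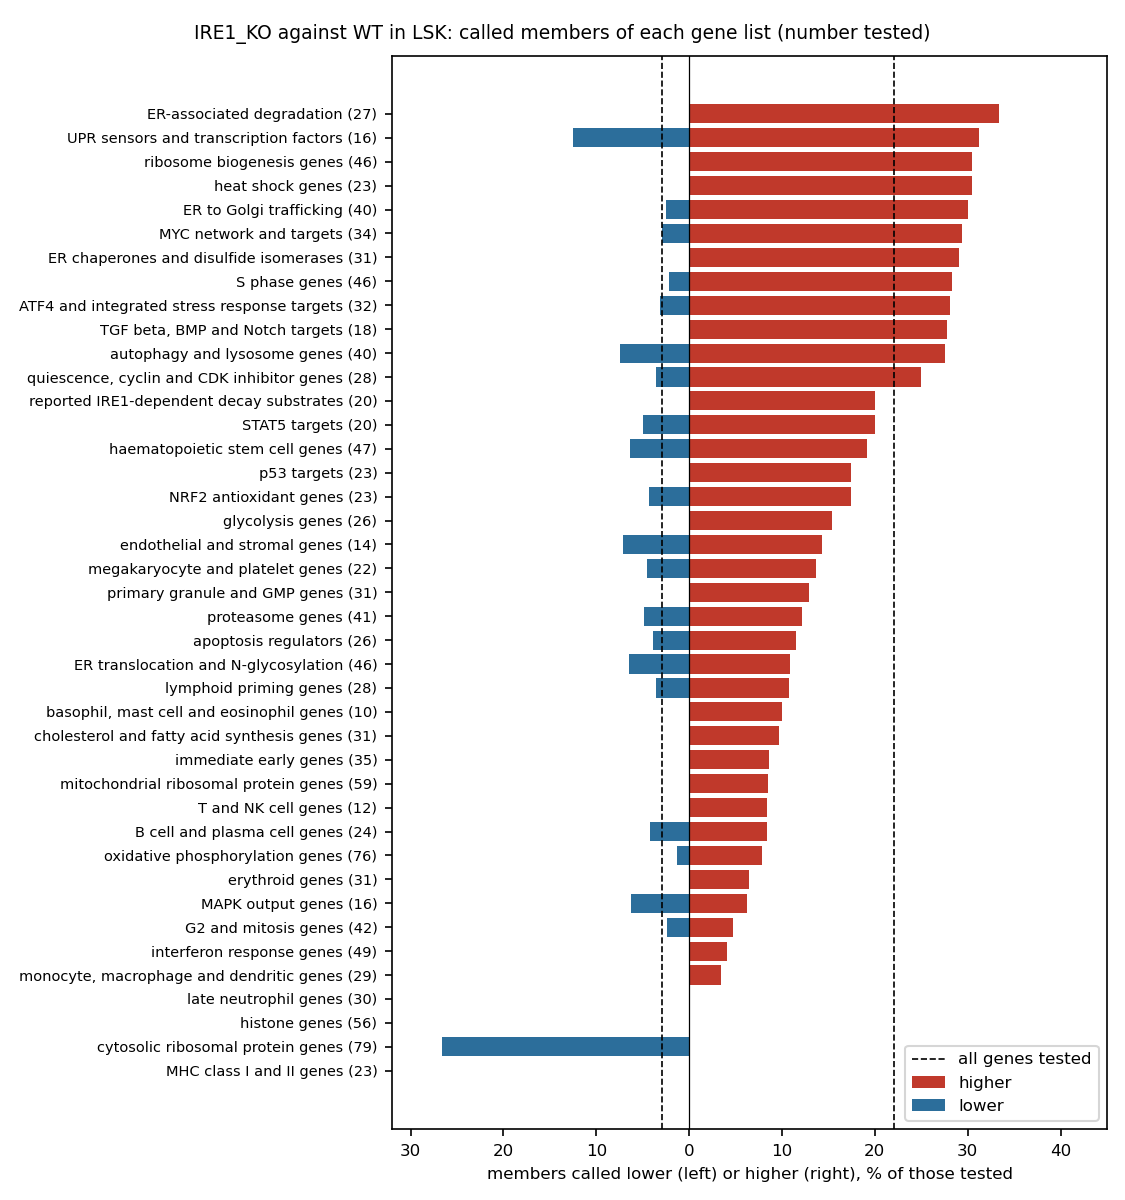
Members of each gene list called higher (right) or lower (left) in IRE1_KO against WT LSK cells, in percent of the members tested, whose number stands in brackets, with dashed lines at the 22% and 2.95% of all genes. The cytosolic ribosomal protein list, with 21 of 79 members lower, has the largest lower share of the lists shown.

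The 10 genes with the highest fold change and no overlap of the groups, short noncoding loci left out, had log2 fold changes of 3.04 to 3.58. Exosc6, a subunit of the RNA exosome, was 4.07, 3.80 and 2.82 FPKM in WT and 52.3, 53.8 and 53.6 FPKM in IRE1_KO libraries (3.58 ± 0.22, limma adjusted p = 9.10e-06). Alyref, an mRNA export adaptor, was 21.3, 20.9 and 14.2 FPKM against 183, 199 and 203 FPKM (3.33). Jund, an AP-1 transcription factor, was 10.1, 25.1 and 12.2 FPKM against 69.1, 230 and 252 FPKM (3.35), with the lowest IRE1_KO library still above all WT libraries. The others were Zfp771, Taf10, Kcnk12, Tmem238, AI848285, Sva and Nsmce4a. Exosc6, Alyref, Jund, Zfp771, Taf10, Kcnk12, Tmem238 and Nsmce4a all had a peak GC over 80%, and that of AI848285 was not known.

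Sva, a secreted protein gene of seminal vesicle type, stood apart from these with a peak GC of 44%. It lies at chr6:42038394-42042851. In WT libraries it was listed at 0, 0.0688 and 0 FPKM and in IRE1_KO libraries at 6.33, 9.52 and 7.36 FPKM (log2 fold change 3.08 ± 0.14, limma adjusted p = 2.19e-06). In ITD LSK cells the IRE1_KO_ITD libraries had 3.76, 5.12 and 4.52 FPKM and the ITD libraries at most 0.0699 FPKM. In GMP its log2 fold change was 2.73. Sva was therefore near 0 in every WT and ITD LSK library and above 3 FPKM in every LSK library with floxed Ern1 and VavCre, with or without the 1ng tag.

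At the lower end, Lars2, the mitochondrial leucyl-tRNA synthetase, was 1552, 1746 and 1462 FPKM in WT and 156.9, 70.2 and 124.8 FPKM in IRE1_KO libraries (log2 fold change -3.82 ± 0.25, limma adjusted p = 9.10e-06). In IRE1_KO_ITD against ITD its log2 fold change was -0.34 (adjusted p = 0.355) and in GMP -0.06 (adjusted p = 0.944), and the effect in LSK cells without ITD differed from both by -3.48 and -3.76. Lars2 held 0.0129 to 0.0286% of all FPKM in the 3 libraries with the 1ng tag and at least 0.0948% in every other library of the series. Mir6236 was low in the same 3 libraries. For Lars2 too, the tag and the genotype cannot be told apart. Gm12238, annotated as a snoRNA of 124 bases, was 22.9, 26.1 and 20.8 FPKM against 0, 0 and 4.50 FPKM. It too differed from the effect with ITD (by -3.77). It is a short noncoding locus that the rule on symbols did not set apart, so the limits given for such loci at the end hold for it. Igj, the joining chain of secreted antibodies and a plasma cell gene, was 19.2, 8.26 and 4.87 FPKM against 1.08, 1.67 and 2.75 FPKM (-1.91, adjusted p = 0.00211). Its groups did not overlap but WT replicate 1 stood far above the others. In such bulk libraries fewer cells of a type and less RNA per cell cannot be told apart.

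Transcription regulators were among the remaining genes of the lower end. Nfya, a subunit of the CCAAT-binding factor NF-Y, was 9.33, 9.99 and 9.90 FPKM in WT and 3.46, 2.57 and 3.09 FPKM in IRE1_KO libraries (log2 fold change -1.42 ± 0.12, limma adjusted p = 1.18e-05). Lyl1, a stem cell transcription factor of the SCL family, was 29.3, 26.6 and 21.98 FPKM against 10.8, 8.08 and 9.48 FPKM (-1.37, adjusted p = 4.82e-05). In each gene the IRE1_KO libraries lay below all WT libraries. With ITD the log2 fold changes were -0.07 and 0.04, neither past the threshold, and the difference of the effects passed for both (adjusted p = 0.00339 and 0.00525). Mpst, Prrc2a, Bak1, Vat1 and Npm3 had log2 fold changes from -1.75 to -1.43. These 20 genes at both ends kept their calls in every alternative run.

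**Figure D4:**
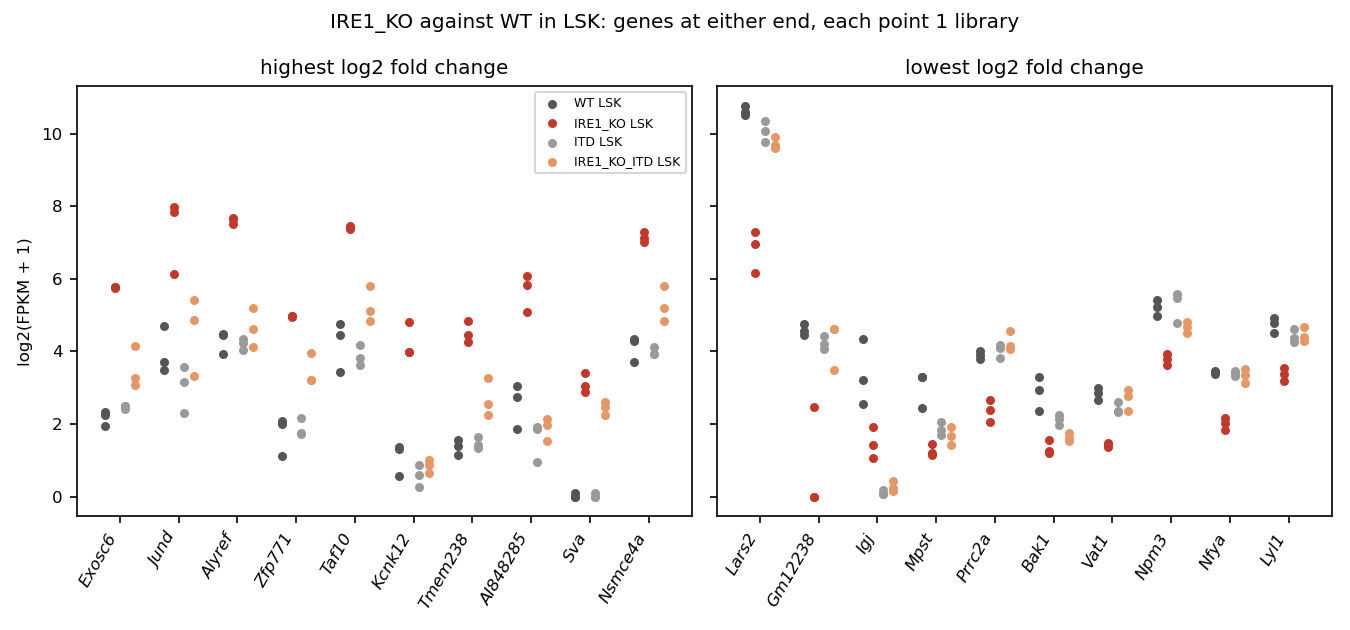
log2(FPKM + 1) of the 10 genes with the highest and the 10 with the lowest fold change in IRE1_KO against WT LSK cells, each point 1 library, with ITD and IRE1_KO_ITD LSK libraries beside them. For Lars2 the 3 IRE1_KO libraries stand alone below the other 9, and for Sva the libraries of both genotypes with floxed Ern1 stand above the rest.

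Of the genes of stem cell identity 9 of 47 were higher, a share near the 22% of all genes, and 3 lower, against 2.95% of all genes, with a median of 0.16, and 5 were higher and 4 lower after quantile normalisation. Without WT replicate 1 there were 5 higher members, and 4 without WT replicate 2 or without IRE1_KO replicate 2 or 3. Bmi1, a Polycomb subunit needed for self-renewal, was 4.80, 5.27 and 4.71 FPKM in WT and 15.4, 17.2 and 15.8 FPKM in IRE1_KO libraries (log2 fold change 1.53 ± 0.17, limma adjusted p = 5.68e-05). Lmo2, a bridging factor of stem cell transcription complexes, was 220, 238 and 175 FPKM against 364, 453 and 458 FPKM (1.01, adjusted p = 0.000206). Cdkn1c, the CDK inhibitor p57 of quiescent stem cells, was 0.996, 1.67 and 0.924 FPKM against 3.94, 7.40 and 6.07 FPKM (1.61). All of these separated the groups, and all have a peak GC over 80%. Among the lower members were Socs2, a brake on cytokine signals, and Ifitm1, an interferon-induced membrane protein, with log2 fold changes of -0.59 and -0.60, that of Socs2 lost without WT replicate 2 (adjusted p = 0.0795) and without IRE1_KO replicate 3 (0.0632). Kit, the receptor that defines the gate, was 60.9, 50.7 and 75.6 FPKM against 73.1, 90.5 and 95.3 FPKM, with overlapping groups (0.47, adjusted p = 0.0497, a call lost in 15 of 18 alternatives, with adjusted p up to 0.247). Among these were the fits without WT replicates 1 and 2 (0.106 and 0.202) and without IRE1_KO replicates 2 and 3 (0.14 and 0.152). Flt3, a receptor of multipotent and lymphoid progenitors, was 144, 144 and 160 FPKM against 189, 219 and 191 FPKM (0.41, adjusted p = 0.00481), and -0.03 after the peak GC correction.

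Markers of later lineages had smaller higher shares than the 22% of all genes, where 2.95% were lower. Their lists had a median peak GC of 65 to 68%, against 73% over all genes. Of all genes with a peak GC from 60 to 65%, 5.19% were higher, and of those from 65 to 70%, 8.35%. The part of peak GC in the small shares was not tested. Of the lymphoid priming genes 3 of 28 were higher and 1 lower, of the B and plasma cell genes 2 of 24 and 1, and of the erythroid genes 2 of 31 and none. Primary granule and GMP genes held 4 higher members of 31, and monocyte and dendritic genes 1 of 29. WT replicate 1 weighed on these counts, and without it 9 erythroid, 7 granule and 4 monocyte genes were higher. Satb1, a chromatin organiser of lymphoid progenitors, was 14.3, 12.9 and 12.2 FPKM in WT and 23.9, 29.0 and 26.9 FPKM in IRE1_KO libraries (log2 fold change 0.96 ± 0.24, limma adjusted p = 0.0121). After the peak GC correction the value was 0.49 (adjusted p = 0.183). In ITD LSK cells it went the other way, from 2.56, 6.87 and 5.99 FPKM to 1.77, 1.44 and 1.91 FPKM, and the difference of both effects was 2.07 (adjusted p = 0.00706). Elane, the neutrophil elastase gene, was 867, 175 and 200 FPKM in WT and 1003, 534 and 386 FPKM in IRE1_KO libraries, with WT replicate 1 among the IRE1_KO values (adjusted p = 0.321, and 0.0386 without it). Monocyte and dendritic genes held 17 lower members and interferon response genes 29 in IRE1_KO_ITD against ITD, where 6.99% of all genes were lower. Here neither list held a lower member. The effect differed for 9 of 29 monocyte and dendritic genes and 15 of 49 interferon response genes. All of these had the higher effect without ITD, and 5.97% of all genes passed in that direction.

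Of the S phase genes 13 of 46 were higher and 1 lower, against 22% and 2.95% of all genes. The higher ones included Mcm2, Mcm3, Mcm4, Mcm6 and Mcm7 of the replicative helicase, and the lower one was the uracil glycosylase Ung. After quantile normalisation 7 were higher and 2 lower, and 8 were higher without WT replicate 2 or without IRE1_KO replicate 2. Without either of these the calls of Mcm2, Mcm3 and Mcm7 were lost (adjusted p 0.0788 to 0.107), and without WT replicate 1 those of Mcm2 and Mcm3 (0.091 and 0.0915). E2f1, the transcription factor that starts S phase, was 6.21, 6.52 and 3.87 FPKM in WT and 20.0, 24.8 and 22.5 FPKM in IRE1_KO libraries (log2 fold change 1.86, limma adjusted p = 2.59e-05). With ITD the log2 fold change of E2f1 was 0.07, and the difference was 1.80 (adjusted p = 0.00472). Of the genes of G2 and mitosis 2 of 42 were higher and 1 lower, a much smaller higher share than the 22% of all genes. Their median peak GC was 69.5%, against 73% over all genes, and 8 were higher without WT replicate 3. Of the ribosome biogenesis genes 14 of 46 were higher and none lower, against 22% and 2.95% of all genes. Their median was 0.28, and 4 were higher and 1 lower after quantile normalisation. Without WT replicate 2 or IRE1_KO replicate 2 the higher count was 6 and 7. Rrs1, an assembly factor of the large subunit, was 7.42, 8.16 and 4.38 FPKM against 34.6, 31.8 and 41.2 FPKM (2.30, adjusted p = 6.54e-05).

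The cytosolic ribosomal proteins were the list with the most lower members. Of 79, 21 were lower and none higher, against 2.95% of all genes, and the median was -0.29. The lower count was 23 after quantile normalisation, 68 after median-ratio scaling, 4 (with 2 higher) after the correction for GC content and length and 3 after that for peak GC. It rested on single libraries as well, with 2, 5 and 19 lower members without WT replicates 1, 2 and 3, and 62, 2 and 3 without IRE1_KO replicates 1, 2 and 3. Rpl10, a late component of the large subunit, was 299, 253 and 243 FPKM in WT and 204, 148 and 158 FPKM in IRE1_KO libraries (log2 fold change -0.65 ± 0.12, limma adjusted p = 0.00209). The groups did not overlap, and the log2 fold change was -0.79 with ITD and -0.60 in GMP, both past the threshold. In IRE1_KO_ITD against ITD 63 of the 79 were lower, where 6.99% of all genes passed in this direction.

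Genes of redox defence and of the lysosome gave single large changes. Gclm, the modifier subunit of glutathione synthesis and an NRF2 target, was 6.33, 4.95 and 3.76 FPKM in WT and 31.7, 34.8 and 34.3 FPKM in IRE1_KO libraries (log2 fold change 2.55, limma adjusted p = 1.26e-05). Sod1, the cytosolic superoxide dismutase, was 206, 218 and 188 FPKM against 147, 113 and 108 FPKM and fell by 0.74 on the log2 scale. The groups were apart in both. Of 23 NRF2 genes 4 were higher and 1 lower, shares near those of all genes. Lamp1, a lysosomal membrane protein, was 17.0, 16.5 and 9.498 FPKM against 102, 107 and 112 FPKM (2.86, adjusted p = 1.29e-05). Of 40 genes of autophagy and the lysosome 11 were higher, near the 22% of all genes, and 3 lower, against 2.95%. After quantile normalisation 6 were higher and 6 lower. Without WT replicate 2 or IRE1_KO replicate 2, 7 were higher.

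The comparison with ITD shares no library with that of IRE1_KO and WT, so genes called in both were counted. There, 1522 genes (13.3%) were higher and 803 (6.99%) lower. Higher in both were 1084 genes, which is 42.8% of the higher genes without ITD and 71.2% of those with it, while 14 of the 2532 were lower with ITD. Lower in both were 39 genes, 11.5% and 4.86% of the lists. After the peak GC correction 6.95% of all genes were higher and 4.15% lower with ITD, and the shared genes were 480 of 2330 higher (20.6%) and 66 of 523 lower (12.6%). Fam69b, a kinase-like protein of the ER, was 24.5, 26.6 and 17.6 FPKM in WT and 83.3, 83.5 and 97.8 FPKM in IRE1_KO libraries, and 24.1, 24.1 and 24.96 FPKM in ITD and 72.0, 75.2 and 95.9 FPKM in IRE1_KO_ITD libraries. The log2 fold changes were 1.91 and 1.68. Fbxo9, a ubiquitin ligase subunit, had log2 fold changes of 1.09 and 1.09, and Osbpl8, a lipid carrier between the ER and the plasma membrane, of 0.79 and 0.79. Cxcr4, the receptor that holds stem cells in the marrow, was 14.2, 12.5 and 12.2 FPKM in WT and 7.997, 3.75 and 5.59 FPKM in IRE1_KO libraries (-1.09 ± 0.23, limma adjusted p = 0.0043), and -0.86 with ITD (adjusted p = 0.0226). Its call held in all 19 alternatives run.

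**Figure D5:**
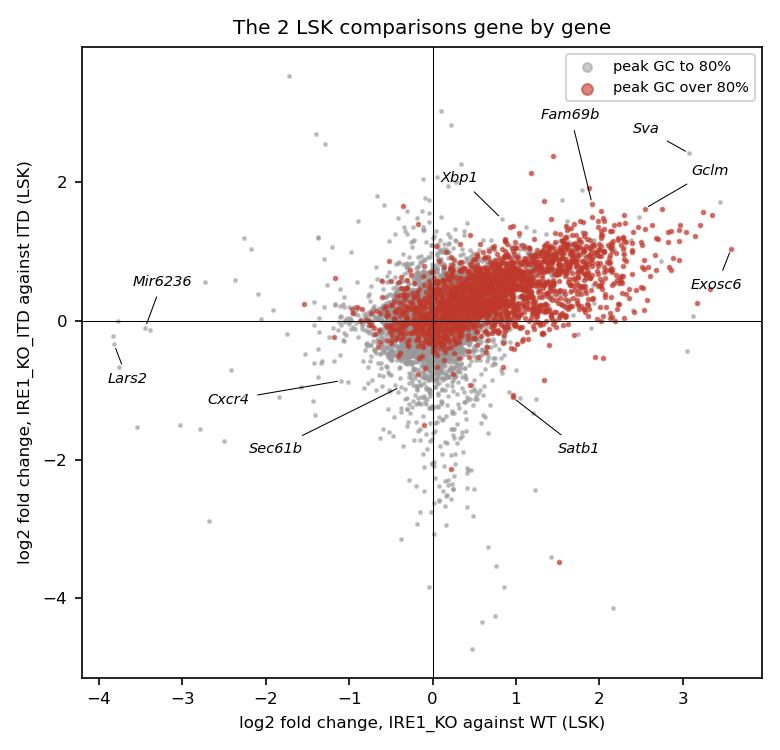
log2 fold change of each gene in IRE1_KO against WT (x) and in IRE1_KO_ITD against ITD (y) in LSK cells, with genes of peak GC over 80% in red. The red genes reach to the upper right, Sva lies at 3.08 and 2.41, and Lars2 and Mir6236 lie far to the left near 0 on the y axis.

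Because of the trend with peak GC, the 4550 genes with a peak GC up to 70% were also fitted alone, an alternative chosen after the data were seen. Of these, 87 (1.91%) were higher and 34 (0.747%) lower, where the fit of all genes had called 290 and 121 of the same genes. Of the 87, 26 were higher in the same fit of IRE1_KO_ITD against ITD, and of the 34, 6 were lower there, which is 29.9% and 17.6%. In that fit 2.31% of the 4550 genes were higher and 9.6% lower. In IRE1_KO against WT none of the genes of ER entry (17 in this set), chaperones (4) or ER-associated degradation (4) was called, while with ITD 7, 2 and none of these were lower. The calls named next were chosen after their values were seen. Peli1, a ubiquitin ligase of innate immune signalling, was 6.17, 5.89 and 5.21 FPKM in WT and 19.5, 19.9 and 20.5 FPKM in IRE1_KO libraries, a log2 fold change of 1.64, and one of 1.13 with ITD. Rnf145, an ER ubiquitin ligase of sterol control, was 8.30, 9.52 and 8.58 FPKM against 24.4, 27.1 and 24.9 FPKM (1.44, and 1.05 with ITD). Tmbim6, the ER membrane protein Bax inhibitor 1, which binds IRE1, was 97.6, 97.3 and 104 FPKM against 49.5, 60.7 and 58.5 FPKM. Its log2 fold change was -0.82 ± 0.09 and -0.01 with ITD, and the difference passed (adjusted p = 0.00706).

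Of 223 short noncoding loci tested, 8 were higher and 16 lower, against 22% and 2.95% of all genes. Mir6236 was 26890, 32340 and 32890 FPKM in WT and 4961, 947.2 and 4700 FPKM in IRE1_KO libraries (log2 fold change -3.45 ± 0.49, limma adjusted p = 0.000278, and 0.0645 after quantile normalisation). With ITD it had a log2 fold change of -0.10 and in GMP one of 0.09, so the 3 IRE1_KO LSK libraries were the low ones. Mir3960 and Mir2861 were listed at 0 in all WT libraries and at 54.2 to 91.2 and 20.4 to 109 FPKM in IRE1_KO libraries, while Mir877 and Mir324 were listed at 0 in all IRE1_KO libraries and at 18.8 to 62.1 and 16.1 to 48.5 FPKM in WT. FPKM of such short loci can rest on few fragments or on fragments of other RNAs that cover them, and it does not show the mature miRNA. The mature sequences below, from RefSeq on GRCm38.p6 with the seed (bases 2 to 8) in capitals, share no seed.
mmu-miR-6236 (chr9:110281353-110281371, plus strand): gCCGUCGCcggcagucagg
mmu-miR-2861 (chr2:32712819-32712837, minus strand): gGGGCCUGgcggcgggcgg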

How the data were processed

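RNA from sorted mouse LSK and GMP cells was sequenced in 24 libraries. The authors deposited FPKM per gene and library, one file each, made with STAR and Cufflinks on mm10 per the submitters' processing notes. No version of either is named in the sources used here. The labels of the samples name SMART-Seq v4 with Nextera XT, the series text TruSeq Stranded mRNA, and which applies was not settled. FPKM divides by length and total, so a locus with much of the total lowers all others.

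The gene lists, members and tests were chosen with earlier results of these data known. Groups came from the titles. Genes at 1 FPKM or more in at least 3 of the 6 libraries were tested on log2(FPKM + 1) with limma 3.58.1 (R 4.3.3; moderated, with a mean-variance trend), fitting the 12 LSK libraries together, or all 24 for GMP, with Benjamini-Hochberg adjustment over 11483 genes and a threshold of 0.05. Replicate numbers were not taken to pair the genotypes. Peak GC came from GENCODE transcripts of GRCm38 and was known for 98.1% of tested genes; in its correction each library was adjusted by a smooth fit on peak GC, GC content and length. The depth ratios compare values under 0.3 FPKM between libraries, where whole-number ratios up to 6, within 0.005, fitted 39.2 to 47.4% of genes against 3 to 5.21% for shifted values. The code was tested on simulated data.

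Genes were named by rule: 15 fixed UPR and gate genes, the 10 highest and 10 lowest called genes other than short loci, without overlap, whose higher group averaged 5 FPKM or more, up to 4 called genes with the smallest p per list, up to 10 per direction called in both LSK comparisons, and the 5 most changed short loci. Others named, such as called members beyond those 4 or genes with an ERSE, were chosen after their values were seen. Short loci were told by the start of their symbols, which left the snoRNA gene Gm12238 among the other genes. Of 1546 list entries 1536 were found. Alternatives were another pseudocount (0.1), no filter, other scalings, GC corrections, a replicate block, sex as a covariate, the 6 libraries alone, no trend and leaving out each library.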

Additional observations from a re-analysis of the deposited data

Results flagged for a closer look

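The effect of IRE1_KO in LSK cells without ITD was tested against that with ITD and against that in GMP, by interaction terms in limma with adjusted p under 0.05. It was higher without ITD for 686 genes and lower for 158, and higher than in GMP for 569 genes and lower for 135. With sex as a covariate the first 844 genes became 99, and with a replicate block the other 704 became 467. All 3 ITD LSK libraries came from females, against 1 of 3 with IRE1_KO_ITD. The named genes below passed, and each value is the log2 fold change in LSK cells without ITD minus the other one.

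Against the effect with ITD, UPR and ER genes differed by 0.996 (Eif2ak3), 0.57 (Sec61b), 0.70 (Sec61g), 0.98 (Sec63), 1.94 (Mogs), 0.65 (Hsp90b1), 1.07 (Herpud2), 1.11 (Tmed2) and -0.81 (Tmbim6). Genes of transcription and RNA differed by 2.20 (Cebpb), 2.55 (Exosc6), 2.88 (Alyref), -1.35 (Nfya), -1.41 (Lyl1), 1.20 (Bmi1), 2.07 (Satb1) and 1.80 (E2f1). Others differed by -3.48 (Lars2), -3.77 (Gm12238), -2.06 (Igj), 2.12 (Lamp1) and -3.34 (Mir6236). Igj was at most 0.145 FPKM in ITD and 0.337 FPKM in IRE1_KO_ITD libraries. At that level a fall with ITD could not be seen, so its value restates the fall without ITD.

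Against the effect in GMP, UPR and ER genes differed by 1.02 (Eif2ak3), 1.09 (Sec61b), 1.27 (Sec61g), 0.62 (Ssr4), 1.48 (Sec63), 2.12 (Mogs), 2.05 (Txndc5), 1.63 (Dnajc3), 1.499 (Herpud2), 2.02 (Tmed2) and -0.98 (Tmbim6). Genes of transcription, RNA and the cell cycle differed by 2.74 (Exosc6), 2.71 (Alyref), -1.45 (Nfya), -1.61 (Lyl1), 1.19 (Bmi1), 1.65 (Cdkn1c) and 1.40 (E2f1). Others differed by -3.76 (Lars2), -3.67 (Gm12238), 2.07 (Lamp1), -1.19 (Cxcr4), 0.94 (Fbxo9), 1.08 (Peli1) and -3.54 (Mir6236). In both tests the 3 IRE1_KO LSK libraries are also the only ones with the 1ng tag, and the tag and the interaction cannot be told apart.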

How the results depend on the processing

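The count of called genes in IRE1_KO against WT LSK cells, 2871, was 2012 to 3006 with 1 library left out. It stayed within 1.5 times under the other settings, apart from the 4550 genes with a peak GC up to 70% alone, with 121. Fewer genes were tested there, and of these same genes the fit of all genes had called 290 higher and 121 lower. The same subset gave 542 for IRE1_KO_ITD against ITD (2325 in the fit of all genes; 1275 after the peak GC correction) and 76 for the difference of both effects. That difference (844) was the least stable: 530 with median-ratio scaling, 514 after rescaling to equal totals, 99 with sex as a covariate, and 435 to 918 with 1 library left out, of which WT replicates 2 and 3 (436 and 534) and IRE1_KO replicate 2 (435) moved it most; the cause was not tested. Same-numbered libraries had correlations of deviations of 0.147, 0.00814 and 0.0418, and 0.144, 0.0291 and 0.0036 with ITD; as only replicate 1 passed 0.1 in either, the numbers were not taken as pairs of genotypes. With a replicate block the counts were 2816 in LSK, 2303 with ITD, 690 for their difference, 87 in GMP (107 without) and 467 for LSK against GMP (704 without). LSK and GMP libraries of 1 number had correlations of 0.106 to 0.169 in WT and 0.098 to 0.366 in IRE1_KO, and a replicate block that ties these, added after the data were seen, gave 940. Of the 2682 calls after quantile normalisation 1439 were higher, of the 2444 after median-ratio scaling 1566, and of the 2871 without either 2532. Of 198 named genes, 150 kept direction and call after quantile normalisation, 153 with median-ratio scaling, 165 after the peak GC correction, 165 with the 6 libraries alone and 190 with the replicate block. Signs turned for Bloc1s1 (0.23 after the GC and length correction, 0.22 after that for peak GC), Flt3 (-0.03112) and the p53 target Sesn1 (-0.01208), both after the peak GC correction. Without counts, low genes have no depth-based error here.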
